A study of Bos taurus with 18 samples.

Results

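RNA levels were followed for 37 genes of the DNA damage checkpoint and of double-strand break repair in bovine (Bos taurus) fibroblasts at 3 stages of long-term culture. The genes were taken by name from a table of 24596 genes. Each name was found on 1 row, and all 37 were among the 13099 genes tested. They are 10 genes of checkpoint and break signalling, 7 of end resection, 9 of homologous recombination, 5 of the Fanconi pathway and 6 of end joining.

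The study asked which transcripts differ between primary, senescent and spontaneously immortalized cells. It used a Simmental-like line and a Holstein-like line, with 3 libraries per stage and 18 in all. The Simmental-like stages are the cell lines PBF-13 (primary), Sn-BF-13 (senescent) and HUN-BF-13 (immortalized), and the Holstein-like stages are PBF-15, Sn-BF-15 and HUN-BF-15. Culture names differ by stage: Simmental-like primary libraries are named BDF-20-3B-4, senescent ones BDF-20-MultiXray-Ctrl and immortalized ones BF-13, while Holstein-like primary libraries are named BEF, senescent ones BF-15-P9 and immortalized ones BF-15-P23. Stage and culture therefore cannot be told apart. The name of the senescent Simmental-like culture holds the words Xray and Ctrl, and the labels do not say whether these cells had been irradiated. No animal age and no added agent are given. Each breed-like label stands for 1 line, and the labels do not say whether its stages came from 1 continuous culture. The replicates are called biological without a statement that they came from separate cultures, and p-values then measure only how far these libraries spread, which may be technical.

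A double-strand break is first bound by the MRE11-RAD50-NBN complex, which activates the kinase ATM, while single-stranded DNA activates ATR together with ATRIP. The kinases mark histone H2AX and switch on CHEK1 and CHEK2, which halt the cell cycle. The break is then either joined end to end, through the Ku proteins, DNA-PKcs, XRCC4 and LIG4, or resected and repaired from a sister copy by homologous recombination, for which BRCA1, PALB2 and BRCA2 load the recombinase. The Fanconi pathway repairs crosslinks between DNA strands and marks FANCD2 and FANCI. Many genes of recombination and of the Fanconi pathway are transcribed most in dividing cells, and senescent fibroblasts are known for a lasting checkpoint signal.

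Simmental-like libraries held 18.2 to 23.2 M counts (M for 1e+06), Holstein-like senescent and immortalized libraries 11.0 to 14.1 M, and Holstein-like primary libraries 1.42 to 1.47 M. The 10 fibroblast markers made up 4.12% to 6.62% of counts in every Simmental-like library, and no marker list of muscle, heart, liver, kidney, immune, endothelial or epithelial cells passed 0.00158% there. The Holstein-like libraries went against their label: 8 of 9 were led by markers of an organ, so they are described one by one at the end and enter no test. Simmental-like primary library 1 stood apart from its group. Its 8 mitochondrial genes held 8.46% of counts, against 2.16% and 2.66% in primary libraries 2 and 3, and its 104 ribosomal protein genes 9.38%, against 5.15% and 6.58%. Senescent libraries 1 and 2 were close to sampling noise, at a chi-square of 1.36 per gene, against 3.49 and 3.96 for the other senescent pairs.

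Levels are TMM-scaled CPM (counts per 1e+06 counts), and changes are log2 values ± SE from 1 fit over the 9 Simmental-like libraries, 3 per stage, with edgeR's quasi-likelihood test. A gene was called when its Benjamini-Hochberg adjusted p over all 13099 genes was under 0.05. The 3 comparisons share libraries, so their values are not independent of each other. They also share 1 estimate of spread. Leaving out a primary library can therefore alter calls of immortalized over senescent cells while their changes stay nearly the same. In bulk RNA, fewer cells that express a gene and less RNA per cell cannot be told apart.

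In senescent compared with primary cells, 15 of the 37 genes rose and 3 fell. These are 40.5% and 8.11% of the 37, where 28.3% of all tested genes were called higher and 29.7% lower. The median change of the 37 was 0.29, and that of all tested genes 0.01. By role, 4 of 10 signalling genes rose and 1 fell, 3 of 7 resection genes rose, 3 of 9 recombination genes rose and 1 fell, 1 of 5 Fanconi genes rose, and 4 of 6 end joining genes rose and 1 fell. The genes that rose most were BRCA2, BRCA1, ATM, POLQ, MRE11A and PRKDC, all by over 1 on the log2 scale.

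In immortalized compared with senescent cells the 37 genes parted: 8 rose and 7 fell, with a median of 0.02 against 0 for all genes. The background was 16.4% called higher and 16.1% lower, so the shares among the 37, 21.6% and 18.9%, were near it. With senescent libraries 1 and 2, which are close to sampling noise, summed as 1 library, 4 members were higher and 3 lower, beside 10.9% and 11.5% of all genes. With only the 6 libraries compared in the fit, more members and a larger share of all genes were called in both directions. End joining genes made up 3 of the 7 that fell, and the 2 Fanconi genes called both rose. In immortalized compared with primary cells 13 genes rose and 1 fell (median 0.37, against 0 for all genes), where 24.9% of all genes were called higher and 25.5% lower. Here 5 of 7 resection genes rose, against 3 of 10 signalling, 2 of 9 recombination, 1 of 5 Fanconi and 2 of 6 end joining genes. Of 8 other tested resection genes, 0 rose and 2 fell in the same comparison (median -0.09), against 3 and 2 with column totals as the scale. The levels of the groups did not overlap for 22, 28 and 19 of the 37 genes in the 3 comparisons, which is 59.5%, 75.7% and 51.4%, while the background was 66.6%, 70.9% and 56.3%.

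**Figure D1:**
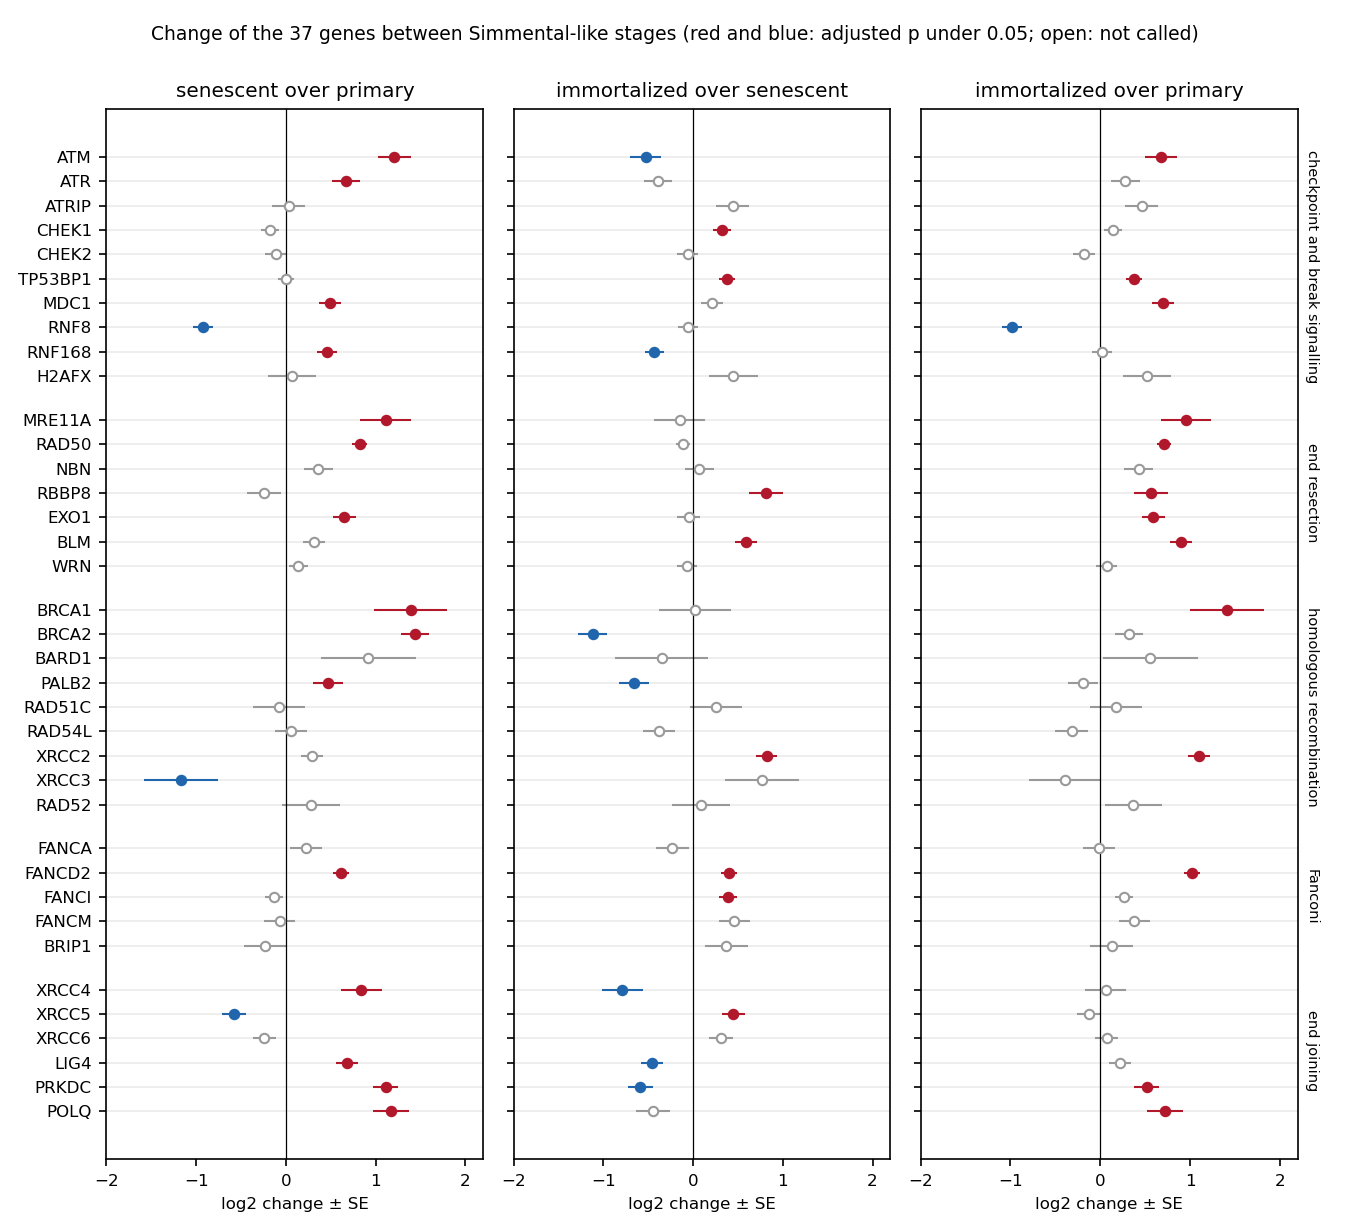
Log2 change ± SE of each of the 37 genes (rows, grouped by role) in the 3 comparisons of Simmental-like stages, 3 libraries per stage. Red and blue points are higher and lower at an adjusted p under 0.05. The 15 red points of the left panel are spread over all 5 roles, and in the middle panel 8 genes are red and 7 blue.

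The size of these counts depends on the scaling, and in immortalized over senescent cells their direction does too. With CPM by column total, without TMM factors, the median of all genes moved to 0.47 in senescent over primary, -0.16 in immortalized over senescent and 0.30 in immortalized over primary. The called members then numbered 27 higher and 1 lower, 1 higher and 8 lower, and 24 higher and 1 lower, beside backgrounds of 45.5% and 14.0%, 11.5% and 20.6%, and 35.0% and 16.0%. Of the 8 genes called higher in immortalized than in senescent cells, all but XRCC2 missed the threshold on that scale, with changes of 0.16 to 0.65 (adjusted p 0.0756 to 0.382). All changes below are relative to the TMM scale.

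Among the kinases, ATM, which starts the response to breaks, was highest at the senescent stage. It had 20.6, 29.9 and 21.4 CPM in primary, 60.6, 59.4 and 46.3 CPM in senescent and 42.5, 37.4 and 35.4 CPM in immortalized libraries. No stage overlapped another. ATM rose by 1.21 ± 0.18 in senescent over primary cells (adjusted p = 0.000694), was lower by -0.53 ± 0.17 in immortalized than in senescent cells (adjusted p = 0.0488) and stayed 0.68 ± 0.18 above primary (adjusted p = 0.0123). The step between senescent and immortalized cells was not called in 6 of the 9 fits that each left out 1 library (primary 3, senescent 1 or 2, or any immortalized library), with adjusted p between 0.0632 and 0.16.

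ATR, the kinase of stalled replication forks, had 17.0, 21.9 and 15.6 CPM in primary, 29.7, 29.9 and 27.0 CPM in senescent and 25.2, 22.1 and 18.8 CPM in immortalized libraries. Senescent levels lay above both other stages, which overlapped. ATR rose by 0.67 ± 0.16 in senescent over primary cells (adjusted p = 0.00803). It was not called in immortalized cells over senescent (-0.39 ± 0.16, adjusted p = 0.0975) or over primary (0.28 ± 0.16, adjusted p = 0.183), but the first passed without primary library 1 or 2 (adjusted p 0.0382 at most) and the second without primary library 2 (0.43, adjusted p = 0.0304). Its partner ATRIP ranged from 28.7 to 55.3 CPM and was called in none of the 3 comparisons.

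CHEK1, the effector kinase below ATR, had 29.9, 29.9 and 33.6 CPM in primary, 27.9, 28.2 and 26.4 CPM in senescent and 36.5, 34.0 and 32.7 CPM in immortalized libraries. Senescent libraries were the lowest of the 9. CHEK1 rose by 0.32 ± 0.10 in immortalized over senescent cells (adjusted p = 0.0381), a call lost without any 1 of the 6 libraries compared (adjusted p 0.0698 to 0.139). Senescent over primary gave -0.18 ± 0.10 (adjusted p = 0.156). CHEK2, the effector below ATM, lay between 7.81 and 9.76 CPM in all 9 libraries and was not called.

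The mediators at the break did not follow 1 pattern. MDC1, the scaffold that binds marked H2AX, had 43.1, 58.5 and 51.2 CPM in primary, 71.1, 74.5 and 69.6 CPM in senescent and 86.0, 83.5 and 78.9 CPM in immortalized libraries. It rose by 0.49 ± 0.12 in senescent over primary cells (adjusted p = 0.00834) and by 0.70 ± 0.12 in immortalized over primary cells (adjusted p = 0.00152). The step of 0.21 ± 0.12 between senescent and immortalized cells did not pass (adjusted p = 0.225) with all libraries and did without primary library 1 (0.20, adjusted p = 0.0437). That library is not part of this comparison and enters only through the shared estimate of spread.

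RNF8 and RNF168 are ubiquitin ligases that act one after the other on the chromatin around a break, and they moved in opposite directions. RNF8 had 33.0, 34.4 and 38.9 CPM in primary, 18.4, 19.4 and 18.3 CPM in senescent and 17.7, 18.9 and 17.3 CPM in immortalized libraries. Both later stages lay below every primary library and overlapped each other. RNF8 fell by 0.92 ± 0.11 in senescent cells (adjusted p = 0.000167) and by 0.98 ± 0.11 in immortalized cells (adjusted p = 0.000106), both against primary cells.

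RNF168 had 18.2, 19.8 and 18.1 CPM in primary, 27.6, 26.0 and 23.4 CPM in senescent and 20.1, 18.6 and 18.3 CPM in immortalized libraries. The senescent stage stood above both others, which overlapped. RNF168 rose by 0.46 ± 0.11 in senescent over primary cells (adjusted p = 0.00754) and was lower by -0.43 ± 0.11 in immortalized than in senescent cells (adjusted p = 0.0158). The call against senescent cells was lost without senescent library 1 or 2 or immortalized library 2 or 3 (adjusted p 0.0661 to 0.0812).

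TP53BP1, which shields ends from resection, had 66.1, 74.3 and 66.7 CPM in primary, 72.7, 67.6 and 66.4 CPM in senescent and 91.9, 90.4 and 86.4 CPM in immortalized libraries. The first 2 stages overlapped, and every immortalized library was higher. The change was 0.38 ± 0.09 over both senescent cells (adjusted p = 0.0134) and primary cells (adjusted p = 0.00905). Against senescent cells it was not called without senescent library 2 or 3 or immortalized library 2 (adjusted p 0.0567 to 0.0652). H2AFX, the histone that the kinases mark, ranged from 78.7 CPM in primary library 2 to 196 CPM in immortalized library 3 and was not called. Primary library 1 held 187 CPM of it, and without that library H2AFX passed in senescent over primary (0.47, adjusted p = 0.011), immortalized over senescent (0.44, adjusted p = 0.00918) and immortalized over primary cells (0.91, adjusted p = 0.000291).

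**Figure D2:**
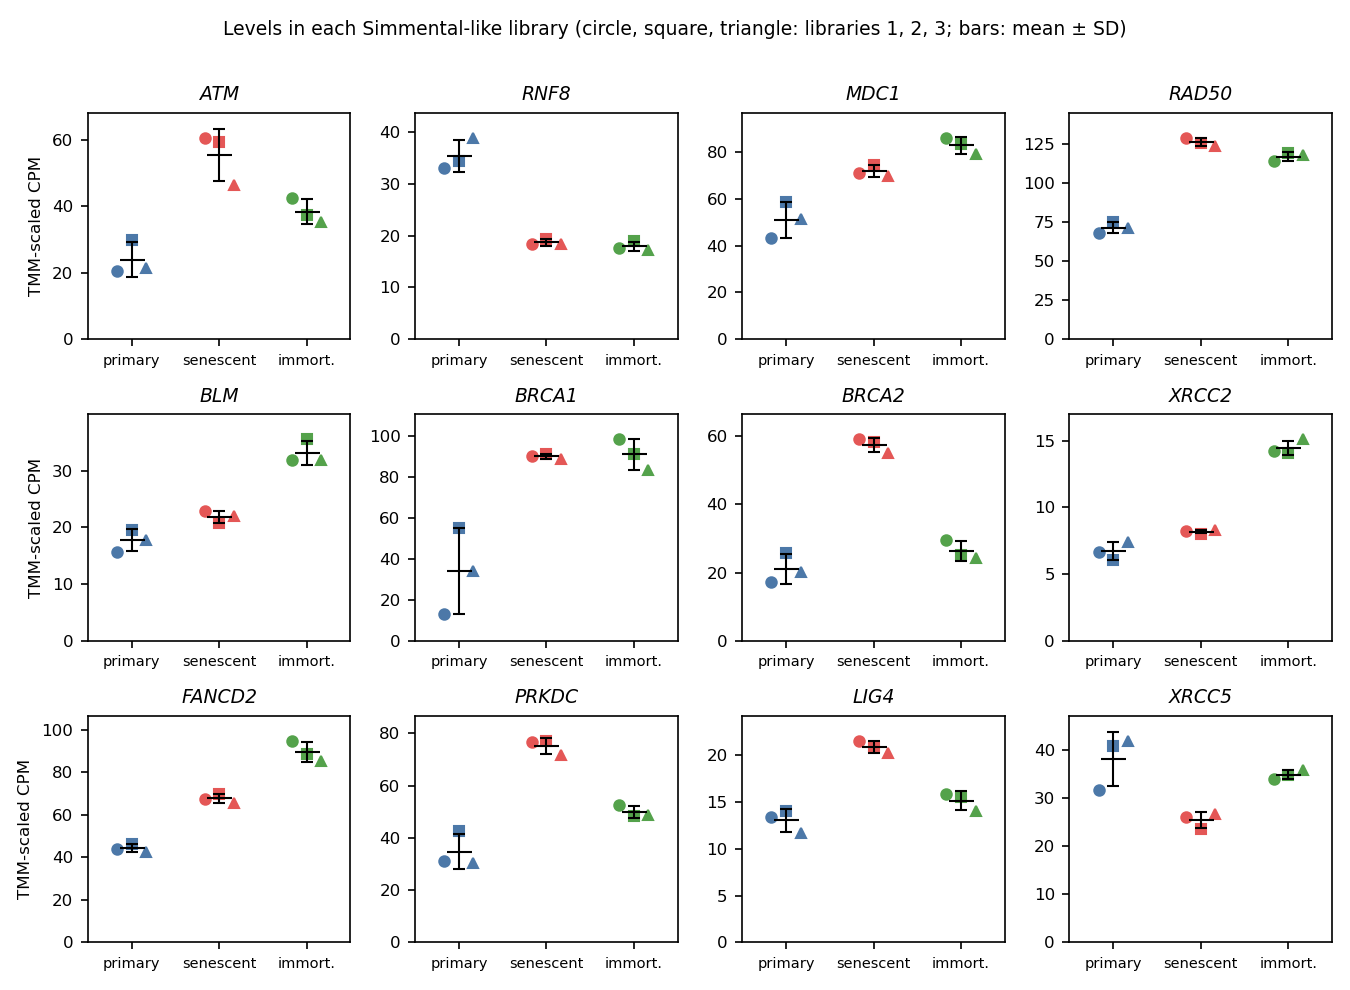
TMM-scaled CPM of 12 of the genes in each Simmental-like library, with stages in culture order and black bars for mean ± SD (n = 3). ATM, BRCA2, PRKDC and LIG4 are highest in the 3 senescent libraries, XRCC5 is lowest there, FANCD2 steps up from stage to stage, and RNF8 is high only in primary libraries among the 9.

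Of the MRE11-RAD50-NBN complex, which holds the ends and begins their resection, 2 subunits rose and stayed high. RAD50, the tether, had 68.0, 75.3 and 71.1 CPM in primary, 129, 126 and 124 CPM in senescent and 114, 119 and 118 CPM in immortalized libraries. Both later stages lay above all primary libraries, and immortalized values were slightly under the senescent ones without a call (-0.11 ± 0.08, adjusted p = 0.336). RAD50 rose by 0.82 ± 0.08 in senescent cells (adjusted p = 7.88e-05) and by 0.71 ± 0.08 in immortalized cells (adjusted p = 0.000151), both over primary.

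MRE11A, the nuclease of the complex, had 8.45, 21.6 and 16.6 CPM in primary, 34.8, 34.8 and 31.4 CPM in senescent and 31.4, 32.2 and 27.4 CPM in immortalized libraries. Primary library 1 held less than any other library. The rise was 1.11 ± 0.28 in senescent over primary cells (adjusted p = 0.0105) and 0.96 ± 0.28 in immortalized over primary cells (adjusted p = 0.0214), and the change in immortalized cells was not called without primary library 3 or immortalized library 1 or 2 (adjusted p 0.0522 to 0.064). NBN, the subunit that recruits ATM, ranged from 31.4 to 56.0 CPM. It was not called, although without primary library 1 it passed in senescent over primary (0.56, adjusted p = 0.000448) and in immortalized over primary cells (0.62, adjusted p = 0.000236).

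RBBP8 (CtIP), which switches the complex to resection, went another way. It had 26.0, 46.0 and 41.9 CPM in primary, 30.2, 32.5 and 33.8 CPM in senescent and 59.0, 58.0 and 52.5 CPM in immortalized libraries, and every immortalized library lay above the other 6. RBBP8 rose by 0.81 ± 0.19 in immortalized over senescent cells (adjusted p = 0.0129), which missed the threshold without senescent library 1 (0.77, adjusted p = 0.0561). Over primary cells it rose by 0.57 ± 0.19 (adjusted p = 0.0373). Without any 1 library other than primary 1 or 2, the call over primary cells was lost (adjusted p 0.0558 to 0.103). Senescent over primary gave -0.24 ± 0.19 (adjusted p = 0.305), and -0.46 (adjusted p = 0.00162) without primary library 1.

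EXO1 and BLM carry resection further, as a nuclease and a helicase. EXO1 had 11.0, 11.5 and 9.59 CPM in primary, 17.3, 16.6 and 16.4 CPM in senescent and 18.1, 15.0 and 15.4 CPM in immortalized libraries. It rose by 0.65 ± 0.13 in senescent cells (adjusted p = 0.00291) and by 0.59 ± 0.13 in immortalized cells (adjusted p = 0.00471), both over primary, and the later stages overlapped.

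BLM had 15.7, 19.6 and 17.8 CPM in primary, 22.9, 20.8 and 22.0 CPM in senescent and 31.9, 35.5 and 31.8 CPM in immortalized libraries. The 3 stages did not overlap, but the first step was not called (0.31 ± 0.12, adjusted p = 0.0504), except without primary library 2 (0.38, adjusted p = 0.0174). BLM rose by 0.59 ± 0.12 in immortalized over senescent cells (adjusted p = 0.00498) and by 0.90 ± 0.12 over primary cells (adjusted p = 0.000313). WRN, a related helicase, stayed between 13.1 and 16.6 CPM in all 9 libraries and was not called.

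Of the 9 homologous recombination genes, BRCA2, BRCA1 and PALB2 rose in senescent over primary cells and XRCC3 fell. BRCA2, the loader of the recombinase, had 17.2, 25.8 and 20.2 CPM in primary, 59.0, 58.2 and 55.0 CPM in senescent and 29.6, 25.1 and 24.3 CPM in immortalized libraries. Every senescent library lay above all others, and the primary and immortalized ranges overlapped. BRCA2 rose by 1.44 ± 0.16 in senescent over primary cells (adjusted p = 0.000135) and was lower by -1.12 ± 0.16 in immortalized than in senescent cells (adjusted p = 0.000895). Immortalized over primary gave 0.32 ± 0.16 (adjusted p = 0.12), which passed without primary library 2 (0.49, adjusted p = 0.0108).

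BRCA1, the ubiquitin ligase that steers breaks to recombination, had 13.1, 55.3 and 34.1 CPM in primary, 90.2, 91.2 and 89.0 CPM in senescent and 98.4, 91.5 and 83.5 CPM in immortalized libraries. Primary libraries lay below all others and differed 4.21 times among themselves. BRCA1 rose by 1.39 ± 0.41 in senescent cells (adjusted p = 0.0184) and by 1.41 ± 0.41 in immortalized cells (adjusted p = 0.0197), both over primary. Without primary library 3 neither was called (adjusted p = 0.0561 for senescent cells), nor was the second without immortalized library 1 or 2 (adjusted p 0.0501 to 0.0598 over these 3 fits). Its partner BARD1 had 1.63 CPM in primary library 1 and 6.73 to 13.6 CPM in the other 8 libraries and was not called, except in senescent over primary cells without primary library 2 (1.55, adjusted p = 0.0256).

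PALB2, which bridges BRCA1 and BRCA2, had 23.0, 17.7 and 14.3 CPM in primary, 25.8, 24.6 and 25.7 CPM in senescent and 16.0, 15.4 and 16.8 CPM in immortalized libraries. The senescent stage was again the highest. The rise in senescent over primary cells was 0.47 ± 0.17 (adjusted p = 0.0372), lost in 8 of the 9 fits that left out a library (all but primary 1), with adjusted p between 0.0566 and 0.0992. In immortalized compared with senescent cells PALB2 was lower by -0.66 ± 0.17 (adjusted p = 0.0157), lost without senescent library 1 or 3 or immortalized library 1 or 2 (adjusted p 0.0507 to 0.0658).

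Of the recombinase relatives, XRCC2 rose at the last stage. It had 6.68, 6.08 and 7.41 CPM in primary, 8.24, 8.03 and 8.29 CPM in senescent and 14.2, 14.1 and 15.1 CPM in immortalized libraries. XRCC2 rose by 0.82 ± 0.12 over senescent cells (adjusted p = 0.00108) and by 1.10 ± 0.12 over primary cells (adjusted p = 0.000113), while the first step of 0.29 ± 0.12 was not called (adjusted p = 0.0721).

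XRCC3 had 23.4, 6.88 and 10.3 CPM in primary, 6.27, 5.80 and 5.92 CPM in senescent and 7.97, 10.1 and 12.7 CPM in immortalized libraries. It fell by 1.17 ± 0.41 in senescent cells against primary cells (adjusted p = 0.0375), and primary library 1 decided the size: without it the change was -0.52 (adjusted p = 0.0633). The call was also lost without any senescent library or immortalized library 2 (adjusted p 0.0558 to 0.0962 over these 5 fits), and with column totals as the scale (-0.63, adjusted p = 0.141). Immortalized over senescent gave 0.77 ± 0.41 (adjusted p = 0.185), and 0.76 (adjusted p = 0.0084) without primary library 1.

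RAD51C, RAD54L and RAD52, which serve strand exchange, were called in no comparison. RAD51C ranged from 10.2 to 25.3 CPM, RAD54L from 28.2 to 48.3 CPM and RAD52 from 12.3 to 33.6 CPM, each with its lowest or highest value in a primary library. Without primary library 1, RAD52 passed in senescent over primary (0.80, adjusted p = 0.0015) and in immortalized over primary cells (0.88, adjusted p = 0.000893). RAD54L then passed in senescent over primary (0.31, adjusted p = 0.00493) and in immortalized over senescent cells (-0.39, adjusted p = 0.000855), and without primary library 2 in immortalized over primary cells (-0.45, adjusted p = 0.0468).

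**Figure D3:**
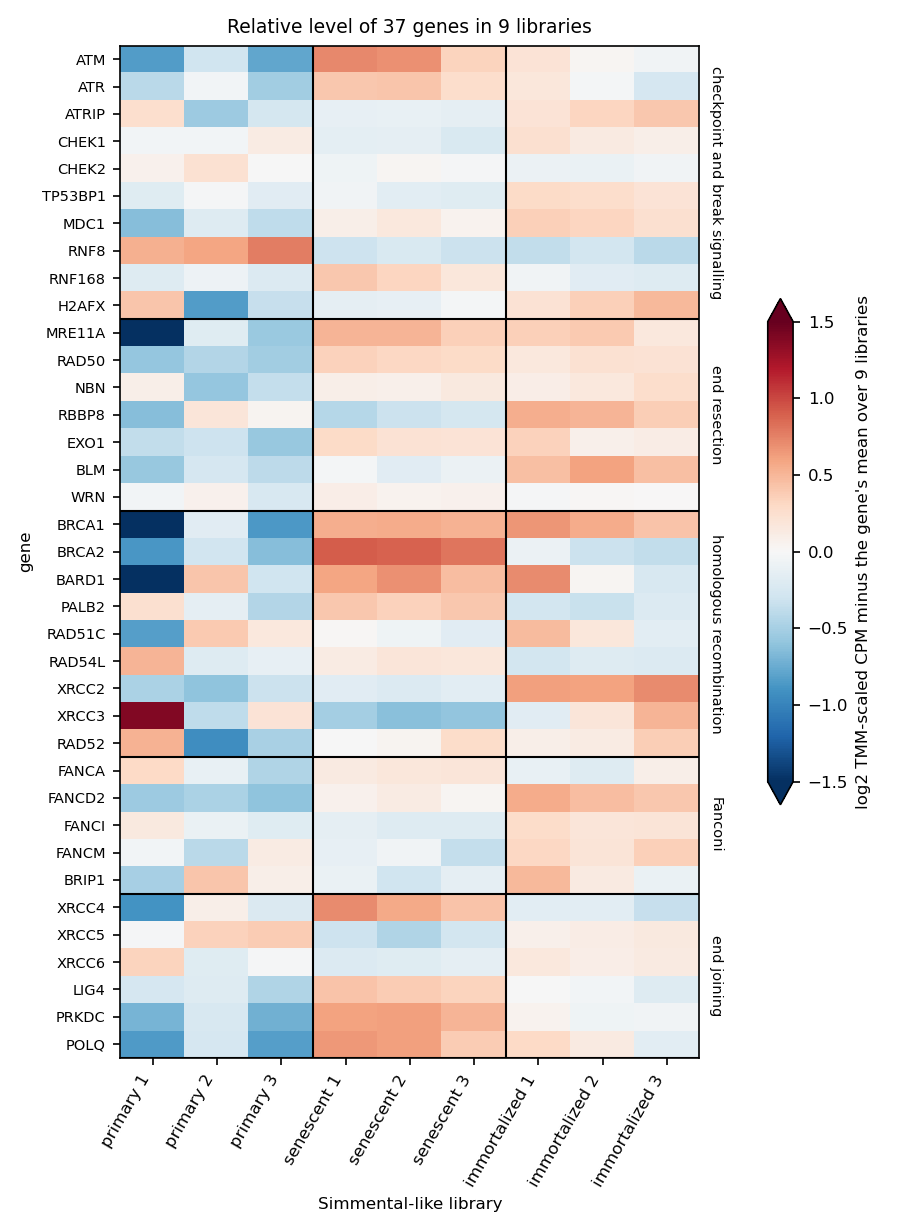
Log2 TMM-scaled CPM of each gene minus its mean over the 9 Simmental-like libraries (rows by role, columns by library; colours end at ±1.5, and darker values can lie beyond). The 3 senescent columns are alike, while primary libraries 1 and 2 differ in sign for genes such as H2AFX, NBN, RBBP8, BARD1, XRCC3 and RAD52.

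In the Fanconi pathway, FANCD2, the protein that is marked at crosslinks, rose at each step. It had 44.1, 46.4 and 42.5 CPM in primary, 67.5, 70.0 and 65.8 CPM in senescent and 94.7, 88.7 and 85.5 CPM in immortalized libraries, and no stage overlapped another. FANCD2 rose by 0.61 ± 0.09 in senescent over primary cells (adjusted p = 0.000623), by 0.40 ± 0.09 in immortalized over senescent cells (adjusted p = 0.00877) and by 1.02 ± 0.09 in immortalized over primary cells (adjusted p = 3.18e-05). These 3 calls held in all 9 fits that left out a library.

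Its partner FANCI had 83.8, 70.8 and 67.2 CPM in primary, 69.3, 66.6 and 66.3 CPM in senescent and 91.7, 86.0 and 87.0 CPM in immortalized libraries. FANCI rose by 0.39 ± 0.10 in immortalized over senescent cells (adjusted p = 0.0208), which was lost without any 1 of the 6 libraries compared (adjusted p 0.0578 to 0.0797). Over primary cells the change was 0.26 ± 0.10 (adjusted p = 0.0702), and 0.33 (adjusted p = 0.00213) without primary library 1.

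The other Fanconi members were called in none of the 3 comparisons. FANCA, of the core complex, ranged from 16.1 to 27.0 CPM, the translocase FANCM from 3.53 to 5.99 CPM and the helicase BRIP1 from 5.65 to 11.2 CPM. FANCM in immortalized over senescent cells gave 0.46 ± 0.17 (adjusted p = 0.072), and passed without primary library 1 or 2 (adjusted p 0.0313 at most). Without primary library 1, FANCA (0.42, adjusted p = 0.0138) and BRIP1 (-0.45, adjusted p = 0.0478) passed in senescent over primary cells.

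Of the 6 end joining genes, PRKDC, LIG4, XRCC4 and POLQ rose in senescent over primary cells, XRCC5 fell and XRCC6 was not called. PRKDC encodes DNA-PKcs, the kinase that Ku brings to the end. It had 31.1, 42.6 and 30.5 CPM in primary, 76.7, 77.0 and 71.6 CPM in senescent and 52.5, 48.3 and 48.6 CPM in immortalized libraries. No stage overlapped another, with senescent cells highest.

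PRKDC rose by 1.11 ± 0.14 in senescent over primary cells (adjusted p = 0.000292), was lower by -0.59 ± 0.14 in immortalized than in senescent cells (adjusted p = 0.0116) and 0.52 ± 0.14 above primary (adjusted p = 0.0143). The second call was lost without immortalized library 2 or 3 (adjusted p 0.0501 and 0.0544) and the third without primary library 3 or immortalized library 1 (adjusted p 0.0516 and 0.0531).

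LIG4 seals the ends and XRCC4 is its partner. LIG4 had 13.4, 14.0 and 11.7 CPM in primary, 21.5, 20.9 and 20.2 CPM in senescent and 15.9, 15.5 and 14.0 CPM in immortalized libraries. XRCC4 had 4.09, 8.11 and 6.54 CPM in primary, 12.4, 11.3 and 10.2 CPM in senescent and 6.80, 6.80 and 5.99 CPM in immortalized libraries. Both were highest in the 3 senescent libraries.

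In senescent over primary cells LIG4 rose by 0.68 ± 0.12 (adjusted p = 0.00151) and XRCC4 by 0.84 ± 0.23 (adjusted p = 0.0134, and 0.0507 without senescent library 1). In immortalized compared with senescent cells LIG4 was lower by -0.46 ± 0.12 (adjusted p = 0.0161) and XRCC4 by -0.79 ± 0.23 (adjusted p = 0.0284). The LIG4 call was lost without senescent library 1 or 2 or immortalized library 2 or 3 (adjusted p 0.0582 to 0.0724), and the XRCC4 call without any 1 of the 6 libraries compared (adjusted p 0.0558 to 0.104). Neither gene was called in immortalized over primary cells.

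Ku is made of XRCC5 and XRCC6, of which XRCC5 was called. XRCC5 (Ku80) had 31.8, 40.9 and 41.9 CPM in primary, 26.1, 23.7 and 26.7 CPM in senescent and 34.0, 34.9 and 35.8 CPM in immortalized libraries, lowest in the 3 senescent libraries. It fell by 0.58 ± 0.13 in senescent cells against primary cells (adjusted p = 0.00465) and rose by 0.45 ± 0.13 in immortalized over senescent cells (adjusted p = 0.0239). With column totals as the scale the first change was -0.13 (adjusted p = 0.535), and the second was lost without any 1 of the 6 libraries compared (adjusted p 0.0549 to 0.103). In immortalized over primary cells XRCC5 was not called (-0.13 ± 0.13, adjusted p = 0.411), except without primary library 1 (-0.26, adjusted p = 0.0157).

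Its partner XRCC6 (Ku70) ranged from 41.8 to 61.0 CPM and was called in none of the 3 comparisons. It passed in senescent over primary cells without primary library 2 (-0.35, adjusted p = 0.0276), in immortalized over senescent cells without primary library 1 or 2 (0.30 and 0.31, adjusted p 0.0433 at most) and in immortalized over primary cells without primary library 1 (0.21, adjusted p = 0.0312).

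POLQ, the polymerase of an alternative joining route, had 9.47, 14.4 and 9.66 CPM in primary, 26.8, 26.3 and 22.3 CPM in senescent and 21.1, 18.8 and 15.4 CPM in immortalized libraries. It rose by 1.17 ± 0.20 in senescent cells (adjusted p = 0.00148) and by 0.72 ± 0.20 in immortalized cells (adjusted p = 0.0159), both over primary. The second was lost without primary library 3 or immortalized library 1 (adjusted p 0.0581 and 0.0616). Immortalized over senescent gave -0.45 ± 0.19 (adjusted p = 0.116), which passed without primary library 1 or 2 (adjusted p 0.036 at most).

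The primary stage varied most. The highest library exceeded the lowest more than 2 times for 7 of the 37 genes among primary libraries, and for 0 of 37 among senescent and 0 of 37 among immortalized libraries, with median ratios of 1.45, 1.07 and 1.12. These ratios were not computed for all genes. Over all genes the chi-square per gene between pairs of libraries was 41.8 to 370 in primary, 1.36 to 3.96 in senescent and 6.57 to 24.4 in immortalized cells. Primary libraries thus also differed most over all genes. The chi-square uses column totals and is unlike the ratios, so whether the 37 genes spread more than others was not tested. Without primary library 1, 21 genes were higher and 4 lower in senescent than in primary cells, with backgrounds of 33.6% and 34.0%. In immortalized compared with senescent cells 14 were then higher and 10 lower (28.7% and 29.9%), and in immortalized compared with primary cells 19 higher and 2 lower (30.5% and 31.4%). In the same comparison of senescent with primary cells, 8 members were gained and 1, XRCC3, was lost. ATRIP, among the gains, then rose by 0.27 (adjusted p = 0.0361). It also passed in immortalized over primary cells without that library (0.69, adjusted p = 0.000245) and in immortalized over senescent cells without primary library 1 or 2 (adjusted p 0.0316 at most).

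Of the calls with all libraries, 14 of 18 in senescent over primary cells held in each of the 9 fits that left out 1 library. In immortalized over senescent cells 4 of 15 did so, namely BLM, BRCA2, XRCC2 and FANCD2, and in immortalized over primary cells 9 of 14. The same share was not computed for all called genes. Over these fits, 10.6% to 28.7% of all genes were called higher in immortalized over senescent cells, and 10.8% to 29.9% lower. Whether calls of the repair genes were less stable than those of other genes was therefore not tested.

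Of 70 other genes listed for the same pathways, 65 were tested. In senescent over primary cells 11 rose and 21 fell (median -0.15), in immortalized over senescent cells 11 rose and 3 fell (median 0.15), and in immortalized over primary cells 16 rose and 17 fell (median 0.15). With column totals as the scale, these were 26 and 10, 4 and 5, and 29 and 6, beside 45.5% and 14.0%, 11.5% and 20.6%, and 35.0% and 16.0% of all genes. The larger side thus changed in all 3 comparisons, though 16 against 17 and 4 against 5 are near ties. It changed in the same way for all tested genes, whose shares on the TMM scale are given above, so the turn is not particular to these genes. Of 12 other end joining genes 7 fell and 0 rose in senescent compared with primary cells, where 29.7% of all genes were lower, and with column totals 2 fell and 1 rose (median -0.08). NHEJ1 (XLF), a partner of XRCC4, averaged 6.89 ± 0.32 CPM in senescent and 13.5 ± 0.84 CPM in primary cells (SD, n = 3 each), a change of -0.97 ± 0.12 (adjusted p = 0.000216).

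The kinase activator TOPBP1 and the end protection factor RIF1 rose at the senescent stage. RIF1 averaged 101 ± 7.8 CPM in senescent and 32.8 ± 13 CPM in primary cells (SD, n = 3 each), a change of 1.62 ± 0.26 (adjusted p = 0.00114), and TOPBP1 averaged 115 ± 2.6 CPM in senescent and 62.5 ± 23 CPM in primary cells (0.87 ± 0.24, adjusted p = 0.0141). RPA1, the large subunit of the protein that coats single-stranded DNA, averaged 113 ± 2.4 CPM in senescent and 285 ± 52 CPM in primary cells (-1.33 ± 0.13, adjusted p = 7.93e-05). Immortalized cells held 141 ± 1.4 CPM of RPA1, still below primary cells (-1.01 ± 0.13, adjusted p = 0.000313). UBE2T, which loads ubiquitin in the Fanconi pathway, averaged 7.59 ± 1.9 CPM in immortalized and 24.5 ± 7.4 CPM in primary cells (-1.69 ± 0.26, adjusted p = 0.000771).

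Replication and mitosis genes moved beside the repair genes, and their part in these results was not tested. The 17 tested replication genes summed to 2690, 2410 and 2590 CPM in primary, 1790, 1770 and 1800 CPM in senescent and 2650, 2730 and 2750 CPM in immortalized libraries. Of these, 12 fell and 0 rose in senescent compared with primary cells (median -0.37), and 12 rose and 0 fell in immortalized compared with senescent cells (median 0.58). With column totals as the scale the first split was 5 lower and 3 higher. The replicative helicase subunit MCM3 averaged 94.6 ± 1.8 CPM in senescent and 218 ± 24 CPM in primary cells (-1.21 ± 0.10, adjusted p = 3.29e-05), and 200 ± 11 CPM in immortalized cells, 1.08 ± 0.10 above senescent (adjusted p = 0.000118). XRCC5, CHEK1 and XRCC3 were also lowest in the senescent libraries, and of these only XRCC5 was called against both other stages. BRCA2, ATM, PRKDC, LIG4, XRCC4, PALB2 and RNF168 were highest there and were called against both. ATR, POLQ and RAD50 were highest there too, with a call at this stage only over primary cells.

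The 18 mitosis genes summed to 2100, 2300 and 2200 CPM in primary, 2400, 2400 and 2330 CPM in senescent and 2930, 2860 and 2780 CPM in immortalized libraries. This sum was not lower in the libraries labelled senescent than in primary ones, although the replication sum was on the TMM scale. By column total the replication sums overlapped, at 1950, 2200 and 2260 CPM in primary and 2070, 2060 and 2080 CPM in senescent libraries. Single genes went both ways. AURKB, with the largest called change of the list, had 95.8, 50.8 and 62.5 CPM in primary and 29.9, 27.5 and 29.2 CPM in senescent libraries (-1.27 ± 0.21, adjusted p = 0.00126). PLK1 and CCNA2 were also lower in every senescent than in every primary library. MKI67 had 131, 397 and 268 CPM in primary and 372, 365 and 335 CPM in senescent libraries, which overlap. TOP2A had 147, 262 and 235 CPM in primary and 354, 355 and 333 CPM in senescent libraries. Whether the senescent cells had stopped dividing was not tested. In senescent compared with primary cells 6 rose and 5 fell, against 10 and 1 with column totals as the scale and 6 and 6 without primary library 1. In immortalized compared with senescent cells 6 rose and 0 fell, against 5 and 3 with column totals and 10 and 5 without primary library 1. The shares of all genes are those given above for each fit. The spindle checkpoint kinase BUB1B averaged 230 ± 2.4 CPM in immortalized and 117 ± 3.6 CPM in senescent cells (0.98 ± 0.09, adjusted p = 0.000106). FANCD2, BLM and XRCC2 were likewise highest in the immortalized libraries.

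Changes in these libraries followed the genomic span of a gene, a view chosen after the values were seen. All tested genes found in RefSeq were split into 4 equal classes by span. Their median change in senescent over primary cells was -0.50, -0.15, 0.16 and 0.49 from the class with the shortest to that with the longest genes. It was 0.16, 0.04, -0.10 and -0.15 in immortalized over senescent cells and -0.34, -0.08, 0.07 and 0.30 in immortalized over primary cells. Primary library 1 minus the mean of primary libraries 2 and 3 gave 0.44, 0.12, -0.14 and -0.38, and without library 1 the senescent over primary medians were -0.31, -0.09, 0.09 and 0.33.

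The 37 repair genes are mostly long, with 3, 7, 12 and 15 of them in the 4 classes. Genes of the same spans would be called higher in 33.1% and lower in 24.7% of cases in senescent over primary cells, 16.0% and 17.8% in immortalized over senescent cells and 27.8% and 23.3% in immortalized over primary cells. Against the median of their own class 22 members were above and 15 below in senescent over primary cells (median difference 0.20), 24 above and 13 below in immortalized over senescent cells (0.08), and 25 above and 12 below in immortalized over primary cells (0.25). The part of gene span in the results was not tested. BRCA2 (1.28 above its class), LIG4 (1.18 above), XRCC5 (-1.08) and RNF8 (-1.08) departed most in senescent over primary cells.

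**Figure D4:**
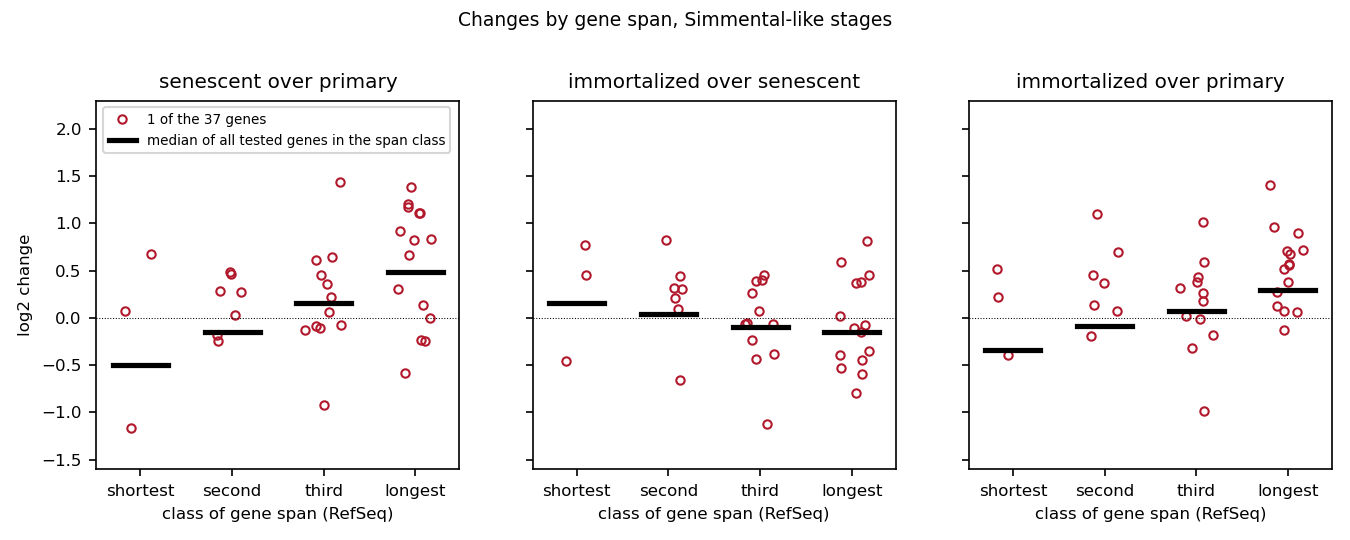
Log2 change of the 37 genes (red circles, spread sideways only for legibility) by class of RefSeq gene span, beside the median of all tested genes in the class (black bars), for the 3 comparisons. The black bars run from -0.50 to 0.49 in senescent over primary cells, and 15 of the 37 genes lie in the longest class.

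Genes on the same chromosome gave a second background. In immortalized over senescent cells, the tested genes that share a chromosome with FANCD2 had a median change of 0.50, beside 0.40 for FANCD2 itself. TP53BP1 (0.38), FANCI (0.39) and BLM (0.59) share 1 chromosome, whose median was 0.39. XRCC2 (0.82, chromosome median 0.10), RBBP8 (0.81, chromosome median 0.22), XRCC5 (0.45, chromosome median -0.25) and BRCA2 (-1.12, chromosome median -0.26) lay farther from theirs. The part of the chromosome medians in these results was not tested.

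The Holstein-like libraries are given singly, as CPM by column total. Skeletal muscle markers made up 17.2%, 17.4% and 17.3% of counts in the 3 primary libraries. Senescent library 1 held 3.91% heart and 1.28% skeletal muscle markers, senescent libraries 2 and 3 held 17.1% and 14.5% liver markers, immortalized library 1 held 14.8% liver markers, immortalized library 2 held 1.19% kidney markers, and immortalized library 3 held 6.69% fibroblast markers. Fibroblast markers were at 0.0743% to 0.65% in the other 8. Immortalized library 3 also held 0.498% endothelial and 0.404% immune markers, which reached at most 0.00133% and 0.00158% in Simmental-like libraries. Differences between these libraries therefore go with the organ markers as well as with the stage label, and the 2 cannot be told apart.

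The 37 genes summed to 240 (95% Poisson interval 216 to 267), 257 (232 to 284) and 237 (213 to 264) CPM in the 3 Holstein-like primary libraries. They summed to 402, 616 and 676 CPM in the senescent and 452, 1040 and 714 CPM in the immortalized libraries, and to between 842 and 1670 CPM in the 9 Simmental-like ones. These intervals cover counting error only. At 0 counts were 7, 3 and 8 genes in the Holstein-like primary libraries, where a count of 0 allows up to 2.06, 2.05 and 2.11 CPM. The 5 Fanconi genes summed to 2.11 to 30.1 CPM in Holstein-like and 120 to 231 CPM in Simmental-like libraries.

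Several genes were high in 1 or a few Holstein-like libraries. BRCA1 had 30.3, 80.9 and 65.5 CPM in the 3 libraries led by liver markers (senescent 2 and 3, immortalized 1) and 2.70 to 5.64 CPM in the other 6. RBBP8 had 162 CPM and TP53BP1 161 CPM in immortalized library 2, led by kidney markers, where the other 8 libraries reached 26.0 and 74.0 CPM at most. POLQ had 16.3 CPM in that library and 2.00 CPM or less in the others. RNF8 had 73.4 CPM in the library with heart markers, against 44.2 CPM at most elsewhere, and RAD50 had 146 CPM in senescent library 2 and 111 CPM in immortalized library 2. EXO1 did not exceed 0.286 CPM in any of the 9. In immortalized library 3, led by fibroblast markers but also holding endothelial and immune ones, BRCA2 had 7.66, FANCD2 1.29, XRCC2 2.65 and EXO1 0.286 CPM. The 18 mitosis genes summed to 73.9 CPM in that library, against 1520 to 3030 CPM in Simmental-like ones.

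**Figure D5:**
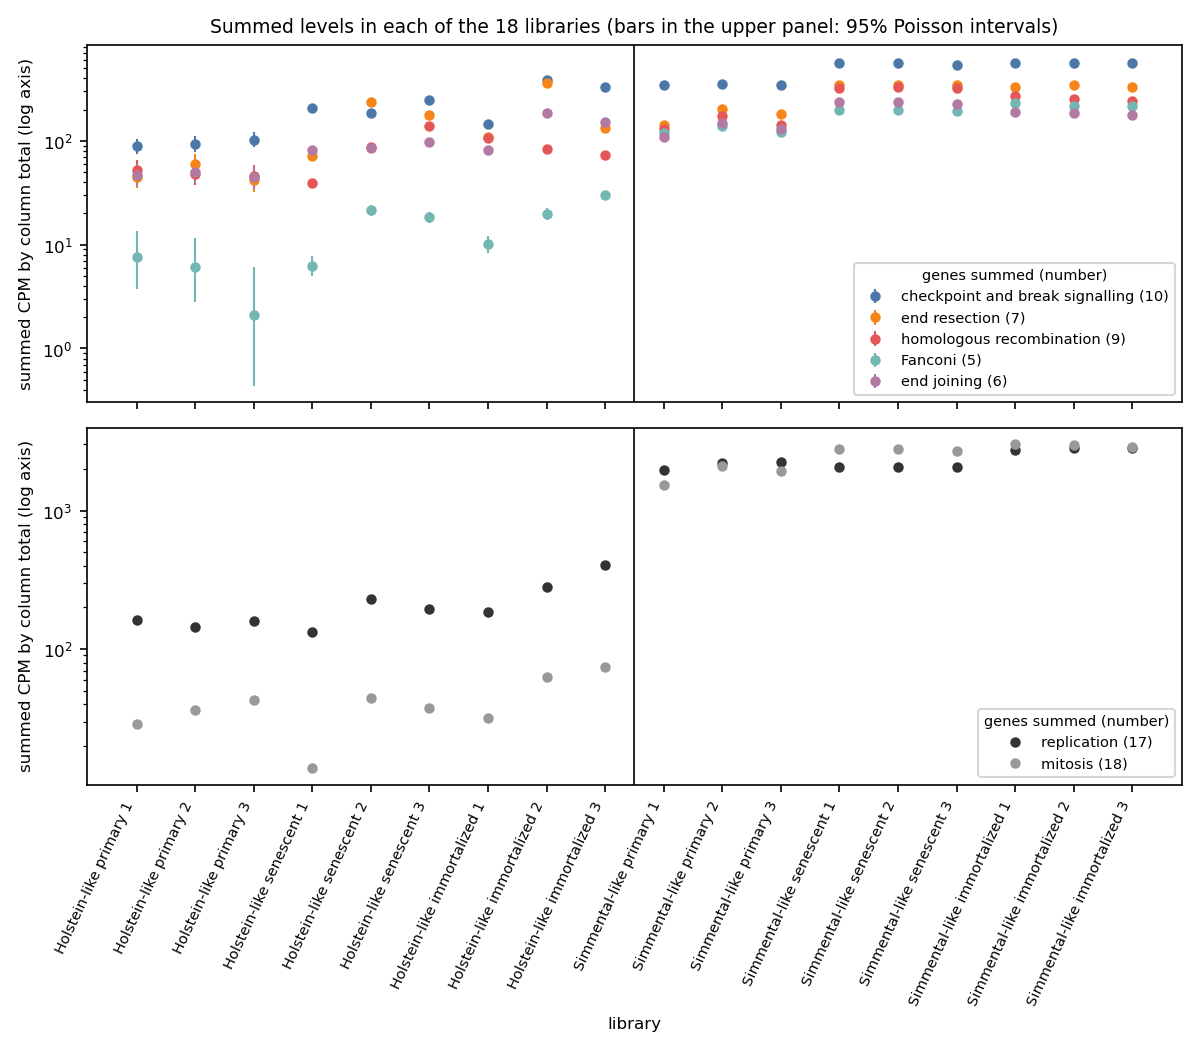
Summed CPM by column total (log axes) in each of the 18 libraries, for the 37 genes by role with 95% Poisson intervals (upper panel) and for replication and mitosis genes (lower panel). All 9 Holstein-like libraries lie below the 9 Simmental-like ones for Fanconi, replication and mitosis genes; the Fanconi sums are 2.11 to 30.1 CPM in Holstein-like libraries, against 120 to 231 CPM in Simmental-like ones.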

How the data were processed

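RNA was sequenced as single reads from 18 libraries, per the labels' protocols (RNeasy mini kit, NEBNext Ultra II kit, NextSeq). The deposited table holds expected counts per gene from salmon, merged by the authors, as its name says. The genome build was UMD3.1 per the submitters' processing notes, and the sources used here do not give the salmon version, the annotation release or the strand setting. The columns of the Holstein-like libraries carry the word Rerun.

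Expected counts were rounded (1.01% to 7.18% of values per library were not whole). The 9 Simmental-like libraries were fitted in R 4.3.3 with edgeR 4.0.16: TMM factors (0.7255 in primary library 1 and 0.8734 to 1.161 in the others), filterByExpr, a robust quasi-likelihood F-test and Benjamini-Hochberg adjustment over 13099 genes. SE is the absolute log2 change divided by the root of F. Holstein-like levels are CPM by column total with exact 95% Poisson intervals and a limit of 3 counts where a gene had 0. Depth was 18.2 to 23.2 M counts in the Simmental-like libraries.

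The members and all lists were chosen with earlier results of these data known. Members called in at least 1 comparison are given in every library and the others by range. Of the other pathway, replication and mitosis genes, names were drawn from the 3 called genes with the largest change per list and comparison. MKI67, PLK1 and CCNA2 were named outside this rule, as was TOP2A in senescent over primary cells. RefSeq gene spans and chromosomes come from a newer assembly than the counts, so no coordinates are given. All 37 members matched it, 2 under another symbol (H2AX for H2AFX and MRE11 for MRE11A), and 11648 tested genes were placed. Promoter and protein sequences were not analysed here. Alternatives were other scalings (RLE, upper quartile, column totals), no filter, a filter of 5 CPM in 3 libraries, DESeq2 1.42.0, limma-voom (limma 3.58.1), only the 6 libraries compared, a replicate block, senescent libraries 1 and 2 summed, and leaving out each library. The fits were also run on simulated data with few changed genes and independent replicates. Those settings differ from these libraries, so the simulation cannot vouch for the calls.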

Additional observations from a re-analysis of the deposited data

How the results depend on the processing

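With column totals as the scale, 27 members were higher and 1 lower in senescent over primary cells (45.5% and 14.0% of all genes). In immortalized over senescent cells 1 was higher and 8 lower (11.5% and 20.6%). In immortalized over primary cells 24 were higher and 1 lower (35.0% and 16.0%). On that scale TP53BP1 (0.46, adjusted p = 0.0161), FANCI (0.35, adjusted p = 0.00956) and XRCC6 (0.25, adjusted p = 0.0413) turned from near or below 0 to higher in senescent over primary cells, where all genes shifted by 0.47. With only the 6 libraries compared, 14 members were higher and 12 lower in immortalized over senescent cells (32.7% and 34.1% of all genes), and 8 higher in immortalized over primary cells (18.6%). With senescent libraries 1 and 2 summed, 4 were higher and 3 lower in immortalized over senescent cells (10.9% and 11.5%). The causes were not tested.

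Leaving out 1 library gave 13 to 21 members higher and 2 to 4 lower in senescent over primary cells (21.8% to 34.3% and 22.2% to 34.0% of all genes), 4 to 14 higher and 1 to 10 lower in immortalized over senescent cells (10.6% to 28.7% and 10.8% to 29.9%), and 8 to 19 higher and 1 to 2 lower in immortalized over primary cells (19.5% to 31.3% and 19.3% to 31.4%). A count moved by over 1.5 times in immortalized over senescent cells without primary library 1 or any of the 6 libraries compared, and in immortalized over primary cells without primary library 3 or immortalized library 1 (8 higher each) and without primary library 1 or 2 (2 lower each). RLE and upper-quartile scaling, both filters, DESeq2 and limma-voom kept each count within 1.5 times, as did the replicate block. With the block 14 members were higher and 2 lower in senescent over primary cells, beside 25.9% and 25.6% of all genes. The block ended 5 calls (PALB2 and XRCC3 in senescent over primary cells; ATM, CHEK1 and XRCC4 in immortalized over senescent cells). Same-numbered libraries correlated between -0.634 and 0.407 in their deviations. Differently numbered libraries were not compared, so these values cannot show whether the numbers pair the samples.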
